A study of Mus musculus with 26 samples.

Results

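Plasmalemma vesicle-associated protein (*Plvap*) and 5 genes of the caveolar coat, *Cav1*, *Cav2*, *Ptrf*, *Sdpr* and *Prkcdbp*, were followed across the cells of the mouse RPE/choroid, the pigmented epithelium behind the retina together with the vascular bed that feeds it. The 6 genes were picked by name, and all 6 were among the 16426 genes of the scRNAseq count tables and the 17623 genes of both bulk tables used. PLVAP is the only protein known to build the diaphragms that span endothelial fenestrae and the necks of caveolae, and the capillaries next to the RPE are fenestrated. Caveolae are flask-shaped pits of the plasma membrane. Caveolins are inserted in their membrane from the cytoplasmic side, and cavins form the outer coat on it. CAV1 and CAV2 are the caveolins of nonmuscle cells. *Ptrf*, *Sdpr* and *Prkcdbp* are the older symbols of *Cavin1*, *Cavin2* and *Cavin3*, where cavin 1 is needed for caveolae to form, cavin 2 takes part in shaping them, and cavin 3 is a further coat subunit that binds protein kinase C delta.

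Single-cell and bulk data were used. The scRNAseq came from 3-month-old mice of 2 strains, B6129PF1/J and C57BL/6J, with 1 library per strain made from a male and a female eye pooled, and its cells carried the 13 cluster labels deposited with the counts. Bulk RNAseq came from RPE/choroid of tamoxifen-treated 6-month-old C57BL/6J mice, 3 wild type and 3 Ihh iΔEC/iΔEC, collected 12 weeks after tamoxifen. In the latter, *Ihh* is deleted by a tamoxifen-inducible Cre under the *Cdh5* promoter, which is active in ECs of all organs, and the control littermates carried the same Cre and received tamoxifen. A second bulk set came from cultured choroidal GLI1+ cells of Gli1GFP/+ mice, a line made in SWR/J (the strain the labels give) and crossed to BALB/c to remove a retinal degeneration allele, given DMSO or 100 nM SAG, an agonist of Smoothened, for 24 h, with 3 replicates each. These cells were sorted by GFP from several pooled mice and expanded over a few passages, so the replicates were not shown to come from separate animals.

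The libraries held 3637 cells with 17168578 UMIs (B6129PF1/J) and 3928 cells with 15230413 UMIs (C57BL/6J), with medians of 3881 and 3174.5 UMIs per cell, and 22 cell barcodes occurred in both. The study counts somewhat more cells in each library than these files hold, and its sizes of single clusters differ from those of the deposited labels used here. Levels are the UMIs of a gene summed over the cells of a cluster, per 10,000 UMIs of that cluster, with exact Poisson 95% intervals that cover counting error only. With 1 library per strain there was no replicate and no test, and the clusters were made by the authors from these same counts, so that the levels by cluster are a description. The EC markers *Cdh5*, *Pecam1*, *Cldn5*, *Flt1*, *Tie1* and *Egfl7* were each highest in 1 of clusters 2, 3 and 4 in both libraries. These clusters are named here by their *Kdr* (VEGF receptor 2) level: Kdr-high (370 and 403 cells, B6129PF1/J and C57BL/6J), Kdr-med (430 and 549 cells) and Kdr-low ECs (63 and 72 cells). The RPE, smooth muscle, melanocyte and hematopoietic markers were highest in clusters 1, 9, 10 and 11, *Sox10*, a Schwann cell marker, in cluster 12, and the pericyte markers in cluster 6, apart from *Rgs5* in the C57BL/6J library, which was highest in cluster 9.

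Most UMIs of *Plvap* and *Sdpr* lay in ECs, whereas those of *Ptrf* lay mostly in mural and stromal cells. ECs made up 23.7% and 26.1% of the cells and 27.1% and 31.9% of the UMIs of the B6129PF1/J and C57BL/6J libraries. They held 96.7% and 96.3% of the *Plvap* UMIs and 91.5% and 93.7% of the *Sdpr* UMIs. For the caveolins the EC share was lower, with 56.2% and 59.7% of *Cav1* and 68.8% and 71.1% of *Cav2*. It was 42.4% and 44.6% for *Prkcdbp* and 24.9% and 29.3% for *Ptrf*, of which smooth muscle cells held 39.6% and 40.7%. The 6 genes thus ranged from nearly all to about the ECs' own part of all UMIs.

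**Figure D1:**
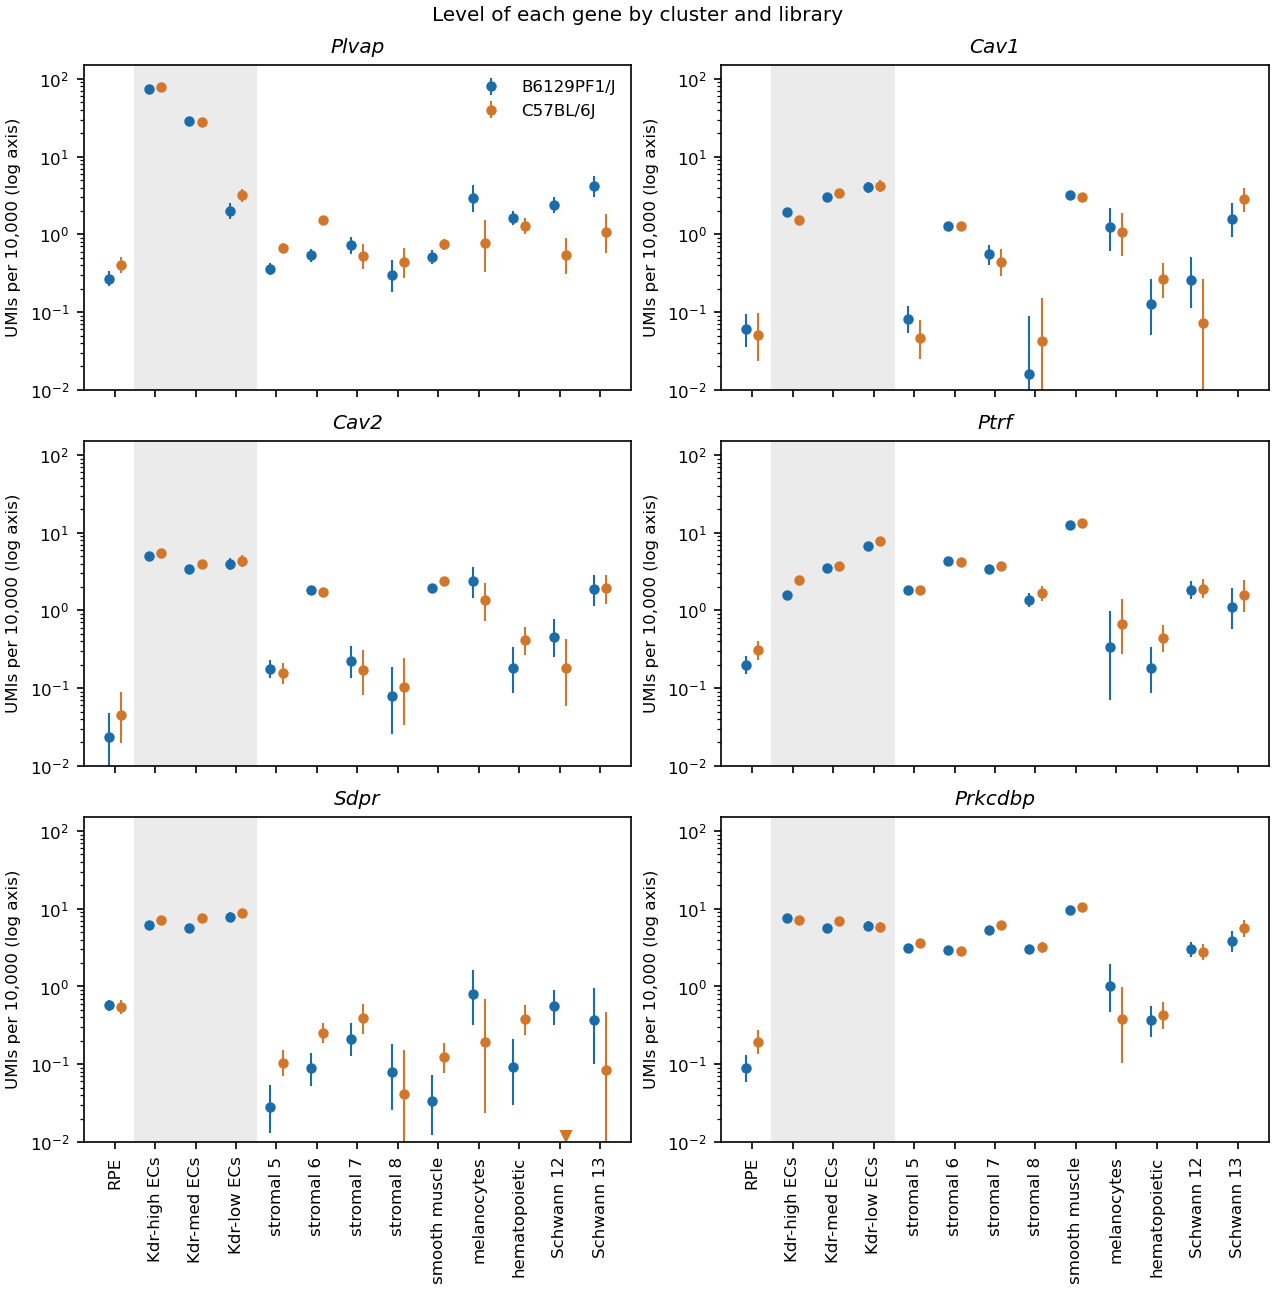
Level of each of the 6 genes (UMIs per 10,000, log axis) in the 13 clusters, for the B6129PF1/J (blue) and C57BL/6J (orange) library; bars are exact Poisson 95% intervals, a triangle marks a count of 0 and the grey band holds the 3 EC clusters. Plvap falls from 73.8 and 78.0 in Kdr-high ECs to 2.02 and 3.17 in Kdr-low ECs, Sdpr is high in all 3 EC clusters, and Ptrf and Prkcdbp peak in smooth muscle.

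The members' genes lie on 5 chromosomes (GRCm38, the assembly named mm10, GENCODE annotation). *Plvap* (ENSMUSG00000034845) spans chr8:71497765-71511752 on the minus strand. *Cav2* (ENSMUSG00000000058, chr6:17281185-17289115) and *Cav1* (ENSMUSG00000007655, chr6:17306335-17341452) follow each other on the plus strand, with 17219 bp between the end of *Cav2* and the start of *Cav1*. *Ptrf* (ENSMUSG00000004044) spans chr11:100956733-100970887 on the minus strand, *Sdpr* (ENSMUSG00000045954) chr1:51289126-51302960 on the plus strand and *Prkcdbp* (ENSMUSG00000037060) chr7:105480083-105482300 on the minus strand. Because *Cav1* and *Cav2* varied together over clusters and *Sdpr* was close to EC-restricted among these cells, the 250 bases before the transcription start of these 3 genes are shown, from RefSeq on GRCm38.p6, plus strand, 5′ to 3′, with each CCAAT or its complement ATTGG in capitals. They lie at chr1:51288876-51289125 (*Sdpr*), chr6:17280935-17281184 (*Cav2*) and chr6:17306085-17306334 (*Cav1*, the first of 2 listed starts).
Sdpr: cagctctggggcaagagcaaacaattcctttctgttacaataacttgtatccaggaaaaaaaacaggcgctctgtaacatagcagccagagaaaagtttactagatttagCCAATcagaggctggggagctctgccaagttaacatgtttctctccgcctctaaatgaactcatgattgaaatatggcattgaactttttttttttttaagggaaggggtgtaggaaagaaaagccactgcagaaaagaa
Cav2: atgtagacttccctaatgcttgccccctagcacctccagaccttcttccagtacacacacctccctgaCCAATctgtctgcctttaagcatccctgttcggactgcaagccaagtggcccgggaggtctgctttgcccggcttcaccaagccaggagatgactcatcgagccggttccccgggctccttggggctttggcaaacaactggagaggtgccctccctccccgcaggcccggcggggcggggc
Cav1: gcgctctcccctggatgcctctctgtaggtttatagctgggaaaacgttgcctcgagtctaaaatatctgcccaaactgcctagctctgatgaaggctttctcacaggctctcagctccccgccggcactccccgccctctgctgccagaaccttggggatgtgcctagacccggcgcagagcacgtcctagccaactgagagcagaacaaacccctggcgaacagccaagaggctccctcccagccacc

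The window of *Sdpr* was poorest in G and C, at 40.4%, against 62.0% for *Cav2*, 59.6% for *Cav1* and a median of 52.4% over the 32851 windows of all genes listed. *Sdpr* and *Cav2* had 1 CCAAT each, on either strand, and *Cav1* had none, while 33.8% of all windows held this motif. GGGCGG occurred once in *Cav2* and once in *Cav1* and not in *Sdpr* (32.7% of all windows). TATAAA occurred once in *Cav1* alone of the 3 (12.4% of all windows), AGGAAG in none of them (29.5% of all windows), and the CArG box, the motif of serum response factor, in none (1.47% of all windows). Both strands were searched, and the motifs do not overlap in these windows. A match says only that the letters are there. RefSeq windows were listed for 4 of the 6 genes.

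Among ECs, *Plvap* went down from Kdr-high to Kdr-low cells while *Cav1* and *Ptrf* went up. *Plvap* was 73.8 per 10,000 (72.6 to 75.1) in Kdr-high ECs of B6129PF1/J and 78.0 (76.7 to 79.3) in those of C57BL/6J. It was 28.8 and 28.0 in Kdr-med ECs and 2.02 (1.56 to 2.57) and 3.17 (2.60 to 3.84) in Kdr-low ECs. The level in Kdr-high ECs was 36.6 times that in Kdr-low ECs in B6129PF1/J (28.8 to 47.4) and 24.6 times in C57BL/6J (20.3 to 30.1).

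*Cav1*, the caveolin without which caveolae do not form in nonmuscle cells, had the opposite order, with 1.93 (1.73 to 2.13), 3.05 and 4.03 (3.37 to 4.78) per 10,000 in ECs of B6129PF1/J in the order Kdr-high, Kdr-med, Kdr-low and 1.53, 3.38 and 4.23 in those of C57BL/6J. Kdr-low ECs had 2.09 times (1.70 to 2.56) and 2.77 times (2.24 to 3.40) the level of Kdr-high ECs. *Ptrf* rose more steeply, from 1.60 (1.43 to 1.79) over 3.56 to 6.75 (5.89 to 7.70) in B6129PF1/J and from 2.44 over 3.76 to 7.77 in C57BL/6J. Its ratio of Kdr-low to Kdr-high ECs was 4.22 (3.53 to 5.03) and 3.18 (2.72 to 3.72). For both genes the intervals did not overlap between Kdr-high and Kdr-low ECs in either library.

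The other 3 coat genes differed less between the EC clusters. *Cav2* was highest in Kdr-high ECs in both libraries, with 4.99 and 5.43 per 10,000, against 3.46 and 3.96 in Kdr-med and 3.94 and 4.32 in Kdr-low ECs. *Sdpr* was highest in Kdr-low ECs, with 7.94 and 8.92, against 6.15 and 7.20 in Kdr-high ECs. *Prkcdbp* was 7.70 and 7.14 in Kdr-high and 6.08 and 5.86 in Kdr-low ECs. The ratios of Kdr-high to Kdr-low ECs were 1.27 and 1.26 for *Cav2*, 0.774 and 0.808 for *Sdpr* and 1.27 and 1.22 for *Prkcdbp*, while the median over all genes tested was 1.02 and 1.04. *Cav2*, whose product assembles with that of *Cav1*, thus stood in the opposite order to it between these clusters, but its intervals overlapped in B6129PF1/J.

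**Figure D2:**
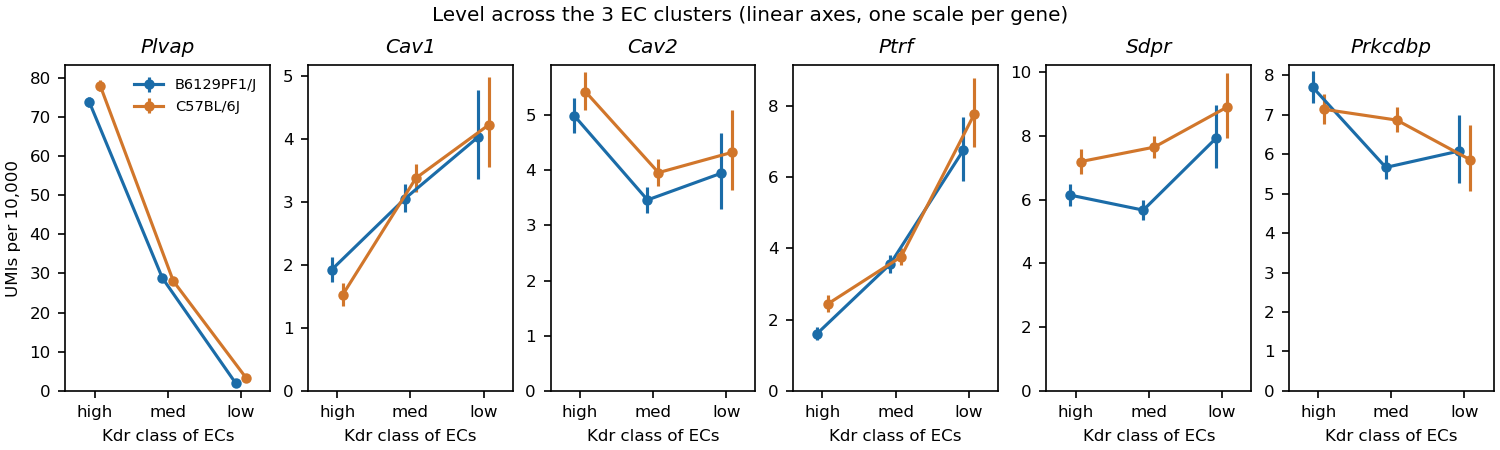
Level of the 6 genes (UMIs per 10,000, linear axes, a separate scale for each gene) in the 3 EC clusters of the 2 libraries; bars are exact Poisson 95% intervals. Plvap goes down and Cav1 and Ptrf go up in both libraries, and Cav2, Sdpr and Prkcdbp stay within a ratio of 1.5 between neighbouring classes.

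A gene was called between Kdr-high and Kdr-low ECs when its ratio was at least 2 in the same direction in both libraries, with at least 20 UMIs in the 2 clusters together in each. By this rule 1 of the 6 genes, *Plvap*, was called higher in Kdr-high ECs and 2, *Cav1* and *Ptrf*, were called lower, where 6.21% of the 7745 genes tested were higher and 4.96% were lower. Between Kdr-high and Kdr-med ECs *Plvap* alone was called, at 2.56 and 2.78 times, with 1.48% of 9479 genes higher and 4.16% lower. *Ptrf*, at 0.450 and 0.649, and *Cav1*, at 0.631 and 0.452, passed in 1 library each. Smooth muscle markers were low in all EC clusters, *Acta2* at 0.178 to 0.627 per 10,000 against 132 and 142 in smooth muscle and *Cnn1* at 0 to 0.0223. *Rgs5*, a pericyte marker, was 5.04 and 3.57 in Kdr-med ECs and 1.13 to 1.60 in the other EC clusters, against 95.9 and 93.0 in cluster 6. Without the ECs that had UMIs of at least 2 of the pericyte and smooth muscle markers, the number of members called between Kdr-high and Kdr-low ECs was again 3.

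Cell by cell, *Plvap* separated the Kdr-high ECs from the Kdr-low ECs almost completely. All 370 and all 403 Kdr-high ECs had a UMI of *Plvap*, and the lowest cell had 9.27 (B6129PF1/J) or 17.5 (C57BL/6J) per 10,000, with medians of 78.0 and 77.4 and highest values of 149 and 202. In Kdr-med ECs 95.8% and 94.0% of the cells had a UMI, with medians of 22.0 and 20.6 and ranges from 0 to 122 in both libraries. In Kdr-low ECs 39.7% and 31.9% had one, the median was 0, and the highest cell had 23.1 and 45.5. In RPE cells, which should lack the gene, 17.0% and 15.8% of the cells had a UMI at median depths of 5263 and 3406.5 UMIs, against 3915 and 2954 in Kdr-low ECs. With each cell thinned to 1700 UMIs, 27.0% and 18.1% of Kdr-low ECs and 5.41% and 5.88% of RPE cells had a UMI of *Plvap*, so that its share in Kdr-low ECs was above that of the RPE in both libraries.

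**Figure D3:**
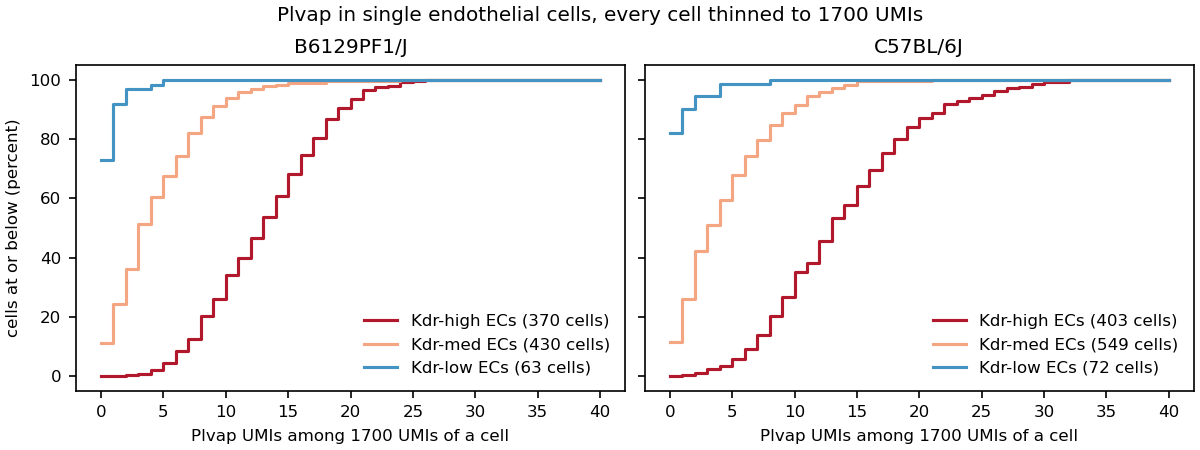
Share of ECs (percent, vertical axis) with at most a given number of Plvap UMIs among 1700 UMIs drawn from each cell (horizontal axis), for the 3 EC clusters and 2 libraries. At 0 UMIs the curve of the Kdr-low ECs stands at 73.0% and 81.9% of the cells, that of the Kdr-med ECs at 11.2% and 11.7% and that of the Kdr-high ECs at 0%.

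The Kdr-med ECs were spread widely in *Plvap*, and the opposite course of *Cav1* and *Ptrf* was also seen within them. These cells were divided into tertiles (3 groups of equal size) of their *Plvap* level, and the coat genes were summed per 10,000 UMIs other than *Plvap*. *Plvap* itself, which made the tertiles, was 46.1, 22.6 and 7.72 in the highest, middle and lowest tertile of B6129PF1/J and 49.0, 20.4 and 5.65 in those of C57BL/6J. *Cav1* was 2.62 (2.32 to 2.95), 3.05 and 3.80 (3.34 to 4.31) in B6129PF1/J and 2.36 (2.09 to 2.67), 3.09 and 5.19 (4.69 to 5.73) in C57BL/6J. *Ptrf* was 2.84, 3.81 and 4.48 in B6129PF1/J and 2.90, 3.33 and 5.51 in C57BL/6J. *Cav2* went from 3.74 in the highest to 2.98 in the lowest tertile of B6129PF1/J and from 4.22 to 3.99 in C57BL/6J. *Sdpr* and *Prkcdbp* had no common order in the 2 libraries. *Kdr* went the way of *Plvap*, from 13.7 to 2.25 and from 10.5 to 2.19, and *Vwf*, a marker of large vessels, went from 2.46 to 6.03 and from 1.64 to 4.25. The cells of the highest tertile were deeper, with a median of 6374 UMIs per cell against 3719 in the lowest tertile of B6129PF1/J and 4361 against 3314 in C57BL/6J, and the part of depth in these values was not tested. Of the Kdr-med ECs, 43 and 58 had UMIs of at least 2 of the pericyte and smooth muscle markers. The tertiles include these cells, and their part in the values was not tested. Within Kdr-high ECs the tertiles differed from 101 to 52.8 and from 112 to 51.7 in *Plvap*. From the highest to the lowest tertile, *Cav1* was 2.14 against 1.77 and 1.53 against 1.63, with no common order. *Ptrf* was 1.39 against 1.74 in B6129PF1/J and 2.17 against 2.77 in C57BL/6J, with the middle tertile in between. It thus rose as *Plvap* fell in both libraries, but the intervals of its highest and lowest tertile overlapped.

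**Figure D4:**
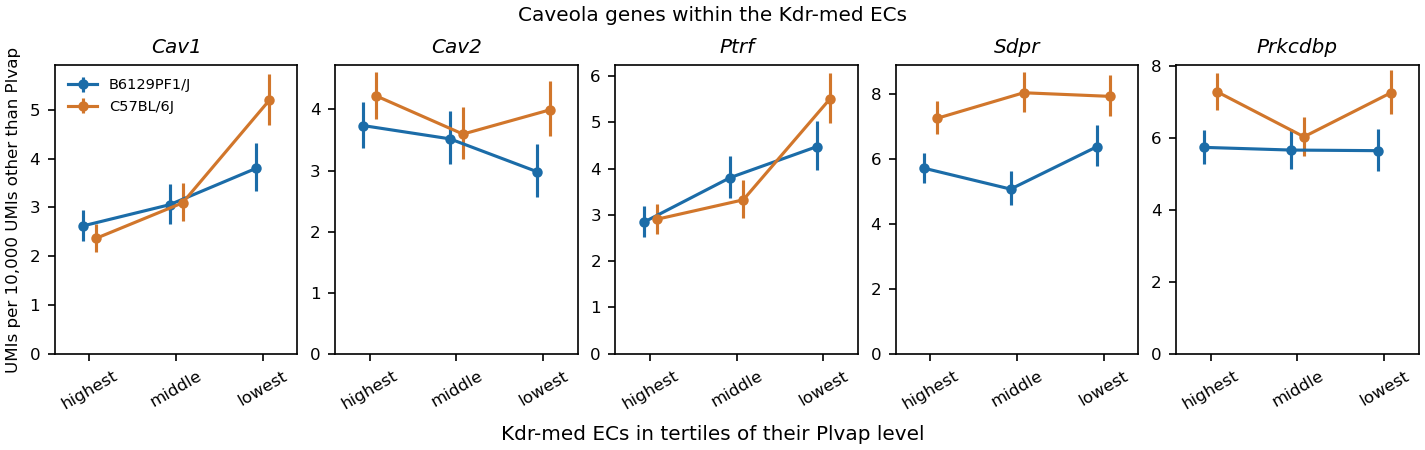
Levels of the 5 caveolar coat genes (UMIs per 10,000 UMIs other than Plvap, linear axes) in Kdr-med ECs divided into tertiles of their Plvap level, for the 2 libraries; bars are exact Poisson 95% intervals. Cav1 and Ptrf are lowest in the tertile with most Plvap and highest in that with least in both libraries, and Prkcdbp is nearly level in B6129PF1/J.

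Against all other clusters together, *Plvap* was 79.6 and 55.3 times as high in ECs (45.4 and 45.1 against 0.570 and 0.816 per 10,000) and *Sdpr* 29.0 and 31.9 times (6.03 and 7.57 against 0.208 and 0.237). *Cav2* was 5.94 and 5.26 times as high and *Cav1* 3.46 and 3.18 times. These 4 of the 6 genes were called higher in ECs, where 12.4% of 12720 genes were, and none was called lower, where 19.9% were. *Prkcdbp*, at 1.99 and 1.72 times, and *Ptrf*, at 0.892 and 0.888 times, were not called.

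Outside ECs the *Plvap* UMIs sat in few cells in several clusters. In B6129PF1/J the 45 UMIs in Schwann cluster 13 came from 2 of its 30 cells and the 26 UMIs in melanocytes from 2 of 16 cells, and in cluster 12 the top 2 cells held 82.4% of 74 UMIs. Among the 2774 and 2904 non-endothelial cells, those of the RPE were not screened for EC markers and stay as counted. Of the others, 35 and 59 had UMIs of at least 2 of *Cdh5*, *Pecam1*, *Cldn5* and *Flt1*. Without them *Plvap* was between 0.123 and 0.491 per 10,000 in all 10 non-endothelial clusters of B6129PF1/J, in place of 0.270 to 4.19, and between 0.174 and 0.521 in those of C57BL/6J, in place of 0.406 to 1.55. No non-endothelial cluster was then above 0.521, against 2.02 and 3.17 in Kdr-low ECs.

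*Sdpr* was also found in the RPE. RPE cells had 0.570 (0.488 to 0.662) per 10,000 in B6129PF1/J and 0.549 (0.445 to 0.671) in C57BL/6J, and 31.2% and 22.5% of them had a UMI. The RPE held 171 and 96 UMIs of *Sdpr* beside 81 and 71 of *Plvap*, whereas ECs held 2800 and 3672 of *Sdpr* beside 21083 and 21894 of *Plvap*. In cluster 5, the largest stromal cluster, there were 9 and 29 *Sdpr* UMIs beside 115 and 183 of *Plvap*. Smooth muscle cells had 0.0338 and 0.123 of *Sdpr* per 10,000, or 0.0232 and 0.0401 without the EC-marker-positive cells. Melanocytes had 0.788 and 0.193 of *Sdpr*, from 7 and 2 UMIs. Schwann cluster 12 had 17 UMIs, in 5 cells, in B6129PF1/J (0.556 per 10,000, or 0.0704 without the EC-marker-positive cells) and 0 in C57BL/6J, which allows up to 0.110. The other coat genes were low in the RPE, with 0.0600 and 0.0515 of *Cav1*, 0.0233 and 0.0458 of *Cav2*, 0.200 and 0.309 of *Ptrf* and 0.0900 and 0.195 of *Prkcdbp*.

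In the stroma, the caveolins were highest in cluster 6, the stromal cluster with most pericyte markers, while 2 of the cavin genes were found in every stromal cluster. *Cav1* was 1.29 and 1.27 per 10,000 in cluster 6 and 0.159 and 0.107 in clusters 5, 7 and 8 together, a ratio of 8.10 (6.24 to 10.6) and 11.9 (8.49 to 16.9). *Cav2* was 1.83 and 1.73 against 0.172 and 0.151, a ratio of 10.6 (8.33 to 13.7) and 11.4 (8.63 to 15.4). These 2 of the 6 genes were called higher in cluster 6, where 5.64% of 10562 genes were, and none was called lower, where 7.02% were. *Ptrf*, at 4.32 and 4.17 against 2.05 and 2.097, had ratios of 2.101 (1.92 to 2.30) and 1.99 (1.80 to 2.20) and was just short of the rule in C57BL/6J. *Prkcdbp* had ratios of 0.848 and 0.727, and among stromal clusters it was highest in cluster 7, with 5.39 and 6.11. In clusters 5 and 8, *Ptrf* was 1.38 to 1.82 and *Prkcdbp* 2.99 to 3.63 in cells whose *Cav1* was 0.0158 to 0.0819 and whose *Cav2* was 0.0791 to 0.176. Cluster 7 had more *Cav1*, at 0.553 (0.407 to 0.736) and 0.443 (0.289 to 0.648), and its *Cav2* was 0.224 and 0.170. The *Cav1* ratio to the 3 pooled clusters thus overstates the gap between clusters 6 and 7.

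Smooth muscle cells had the highest *Ptrf* and *Prkcdbp* of all clusters, and their intervals did not overlap those of the next cluster in either library. *Ptrf* was 12.4 (11.9 to 12.95) and 13.3 (12.8 to 13.8) per 10,000 and *Prkcdbp* 9.55 and 10.6. *Cav1* was 3.18 and 3.02, with intervals that overlapped those of Kdr-med ECs in both libraries, and *Cav2* was 1.93 and 2.42. Against the 4 stromal clusters together, *Cav1* was 6.33 and 6.15 times as high, *Ptrf* 4.53 and 4.77 times, *Prkcdbp* 2.87 and 2.94 times and *Cav2* 2.86 and 3.58 times. These 4 of the 6 genes were called higher in smooth muscle, where 6.17% of 11059 genes were, and none was called lower, where 16.1% were. The median ratio of all genes tested was 0.854 and 0.836 in this comparison, a shift of -0.23 and -0.26 on the log2 scale. Of all calls 27.7% were higher in smooth muscle, or 38.7% with this median set to 1, and the same 4 genes were called in both cases. *Cav3*, the muscle caveolin, was found almost only here, at 0.118 and 0.151 per 10,000, and *Murc*, the muscle cavin, had at most 0.0183 in any cluster.

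Among Schwann cells, *Cav1* and *Cav2* were higher in cluster 13 than in cluster 12. *Cav1* was 1.58 (0.922 to 2.53) and 2.84 (1.97 to 3.97) per 10,000 in cluster 13 and 0.261 (0.113 to 0.515) and 0.0734 (0.00888 to 0.265) in cluster 12. *Cav2* was 1.86 and 1.92 against 0.458 and 0.183. The counts were small, 17 and 34 UMIs of *Cav1* in 9 of 30 and 19 of 46 cells of cluster 13, and the 2 clusters were not compared by the rule above. Melanocytes had 2.36 and 1.35 of *Cav2* and 1.24 and 1.06 of *Cav1*, from 16 and 26 cells. Hematopoietic cells had 0.128 and 0.264 of *Cav1*, or 0.133 and 0.143 without the EC-marker-positive cells.

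Counted per cell, transcripts of the coat genes met in the same cell most often in ECs and smooth muscle. With every cell thinned to 1700 UMIs, the mean number of the 5 coat genes detected was 2.38 and 2.47 in Kdr-high, 2.50 and 2.69 in Kdr-med and 3.11 and 3.07 in Kdr-low ECs, 2.28 and 2.41 in smooth muscle cells, 1.27 and 1.23 in cluster 6, and 0.170 and 0.195 in the RPE. A caveolin and a cavin were found together in 59.3% to 69.8% of the cells of the EC clusters, in 58.7% and 59.4% of smooth muscle cells and in 24.0% and 25.4% of cells of cluster 6 and in 16.7% and 41.3% of the 30 and 46 cells of Schwann cluster 13, but in 0% to 2.15% of the cells of clusters 5 and 8. In these 2 stromal clusters 52.2% to 58.1% of the cells had a cavin without a caveolin. These shares understate joint expression, since a gene can be present and draw no UMI.

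Other genes that act at caveolae were read from a list of 9: *Cav3*, *Murc*, *Ehd1* to *Ehd4*, whose ATPases sit at the caveolar neck or in endosomal recycling, and *Pacsin1* to *Pacsin3*, which bend membranes. Of the 5 with enough UMIs, 1 was called higher in Kdr-high than in Kdr-low ECs (*Ehd3*) and 1 lower (*Ehd2*, 0.415 and 0.477 times), beside 6.21% and 4.96% of all genes tested. *Ehd3* had 74 and 75 UMIs in Kdr-high against 5 and 2 in Kdr-low ECs, a ratio of 2.54 (1.04 to 8.06) and 6.79 (1.82 to 57.1). *Ehd2* thus had the order of *Cav1* and *Ptrf*, with 1.40 and 1.41 per 10,000 in Kdr-high, 1.72 and 1.97 in Kdr-med and 3.36 and 2.96 in Kdr-low ECs. *Ehd4* was called higher in ECs than elsewhere, at 17.1 and 18.9 times, and was highest in Kdr-high ECs, with 14.7 and 16.2. *Pacsin3*, *Pacsin1* and *Cav3* were called lower in ECs, so that of 8 tested 1 was higher and 3 were lower, beside 12.4% and 19.9% of all genes. *Pacsin1* had only 3 and 1 UMIs in ECs against 25 and 35 elsewhere, with a ratio of 0.324 (0.0625 to 1.06) in B6129PF1/J. *Cav3* had 0 and 2 UMIs in ECs against 21 and 28 elsewhere. In cluster 6 against the other stroma, 5 of 7 tested were called higher, namely the 4 *Ehd* genes and *Pacsin2*, beside 5.64% of all genes. In smooth muscle against the stroma 4 of 8 were higher and 1 was lower, beside 6.17% and 16.1%.

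A list of 11 genes of endothelial exchange and VEGF signaling was read beside them. Of the 8 tested between Kdr-high and Kdr-low ECs, 5 were called higher, as *Plvap* was, and 1 lower, beside 6.21% and 4.96% of all genes tested. *Gpihbp1*, which carries lipoprotein lipase across the endothelium, had 215 and 456 UMIs in Kdr-high ECs and 0 and 3 in Kdr-low ECs. It was thus at least 12.3-fold higher in B6129PF1/J, against a floor of 3 UMIs in that library, and 27.5 times (9.37 to 134) as high in C57BL/6J. *Esm1*, with 3 and 6 UMIs in Kdr-low ECs, was 61.2 times (20.9 to 297) and 37.5 times (17.2 to 102) as high. *Kdr*, 1 of the 5, was 26.9 and 15.5 times as high, but these clusters are named by its level, so its call was given in advance. *Emcn*, an endothelial sialomucin, was 6.42 and 7.21 times as high and *Nrp1* 3.67 and 3.10 times. Neither was confined to ECs, and in B6129PF1/J stromal cluster 6 had 16.96 of *Emcn* and 20.4 of *Nrp1* per 10,000. Against all other clusters together, ECs had 3.58 and 3.02 times the *Emcn* and 1.88 and 1.76 times the *Nrp1*. *Nos3*, whose enzyme binds CAV1, was the lower one, at 0.419 and 0.486 times, with 0.961 and 0.925 per 10,000 in Kdr-high and 2.29 and 1.90 in Kdr-low ECs. *Aqp1*, a water channel, was 0.978 times in B6129PF1/J and 2.20 times in C57BL/6J. *Mfsd2a*, a lipid transporter known to hold down caveolar transport in brain ECs, had 0 to 0.0816 per 10,000 in the EC clusters and 0.577 and 0.372 in the RPE.

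The genes whose levels over the 26 cluster and library pairs were most like those of each member were taken by Pearson's r of log2(UMIs per 10,000 + 0.1), among 7563 other genes with at least 200 UMIs in each library. The points share libraries and cluster definitions, so r describes and does not test. *Plvap* was most like *Kdr* (r = 0.976), *Fam167b*, *Exoc3l2*, *Ramp3* and *Pde2a* (0.970 to 0.957). The neighbouring genes *Cav1* and *Cav2* were each other's closest gene, at r = 0.938, ahead of *Pnpla2* (0.865) for *Cav1* and *Rell1* (0.894) for *Cav2*. *Kif5b*, *Nrarp* and *Strn3* followed for *Cav1* and *Esam*, *Ehd4* and *Dusp3* for *Cav2*. *Ptrf* was most like *Ehd2* (0.915), then *Pdcl3*, *Tm4sf1*, *Fam20a* and *Pls3*. *Sdpr* was most like *Adgrl4* (0.939), *Wscd1*, *Tmem88*, *Podxl* and *Clec1a*, and *Prkcdbp* most like *2010111I01Rik* (0.923), *Hes1*, *Cd200*, *Cyb5r3* and *Id1*. Between members, *Ptrf* and *Prkcdbp* had r = 0.863, the eighth highest for *Ptrf*, whereas *Ptrf* and *Sdpr* had 0.173 and *Plvap* and *Ptrf* 0.120. The 3 cavin genes therefore split, with *Sdpr* closer to *Plvap* (0.798) than to the other cavins.

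The strain libraries were compared within 4 clusters, 2, 3, 6 and 9, where a ratio of B6129PF1/J to C57BL/6J of at least 1.5 in either direction was called. Strain and library cannot be told apart. In Kdr-high ECs, 1 of the 6, *Ptrf*, was lower in B6129PF1/J (1.60 against 2.44 per 10,000, ratio 0.656, interval 0.565 to 0.760), where 8.53% of 9193 genes were lower and 6.8% higher. With median-of-ratios scaling *Ptrf* was no longer called. In Kdr-med ECs none was called, where 7.65% of 10149 genes were higher and 6.23% lower, and the farthest was *Sdpr* at 0.741 (0.692 to 0.794). In cluster 6, 2 of the 6 were lower in B6129PF1/J, *Plvap* (0.543 against 1.55) and *Sdpr* (0.0881 against 0.252), where 8.42% of 9649 genes were lower and 6.63% higher. In smooth muscle, *Sdpr* was lower (6 against 22 UMIs), where 7.64% of 8958 genes were lower and 8.91% higher. Of the clusters outside these 4, the Kdr-low ECs had 66 against 105 UMIs of *Plvap*, which is a ratio of 0.636 (0.460 to 0.873). This gap depended on how the level was taken. With cells thinned to equal depth, *Plvap* in Kdr-low ECs was 2.52 per 10,000 in B6129PF1/J and 2.61 in C57BL/6J. As a mean over cells it was 2.37 and 3.29. The share of Kdr-low ECs with a UMI had the opposite order, 39.7% against 31.9%, and the highest cell had 23.1 and 45.5 per 10,000. Other members passed 1.5 in further clusters too, in both directions. Examples are *Plvap* at 4.40 (2.50 to 8.25) in cluster 12 and *Prkcdbp* at 0.463 (0.269 to 0.790) in the RPE. The *Plvap* ratio in cluster 12 rested on few cells, as the top 2 held 82.4% of the 74 UMIs of B6129PF1/J. Without EC-marker-positive cells, *Plvap* in cluster 12 was 0.141 per 10,000 in B6129PF1/J and 0.486 in C57BL/6J, which is the opposite order. The share over all genes is not given for these clusters. The 3 calls in cluster 6 and smooth muscle concern genes near the level seen outside ECs. Without EC-marker-positive cells, *Plvap* in cluster 6 was 0.491 and 0.432 per 10,000 and *Sdpr* 0.0645 and 0.118.

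Bulk RPE/choroid asked whether deletion of *Ihh*, a hedgehog ligand, from ECs went with a change of these genes. The deposited table holds the authors' mean FPKM of the 3 mice of a group, so there is no spread and no test, and a gene was called at a ratio of 1.5 in either direction with 0.1 FPKM added to both means and the larger one at or above 1 FPKM. *Ihh* itself had a mean of 1.53 FPKM in wild type and 0.454 in Ihh iΔEC/iΔEC tissue, and its targets *Gli1* and *Ptch1* had 9.40 and 7.69 against 3.15 and 4.98, and all 3 were called lower. None of the 6 genes was called, where 2.02% of 11411 genes were higher and 2.41% lower.

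*Cav2*, with 14.2 FPKM in wild type and 9.51 in Ihh iΔEC/iΔEC, and *Cav1*, with 18.96 and 12.9, were nearest to the rule. Their ratios were 0.673 and 0.681, just inside the bound of 0.667, and 2.50% and 2.66% of the genes had ratios as low or lower. *Plvap* had 122 FPKM in wild type and 101 in Ihh iΔEC/iΔEC (ratio 0.829). *Prkcdbp* had 35.1 and 27.3 (0.778), *Ptrf* 32.4 and 27.6 (0.853), and *Sdpr* 12.4 and 13.1 (1.06). The ratios of 5 of the 6 genes were thus below 1, as were those of 6767 of all 11411 genes. The median ratio was 0.804 over the 6 genes against 0.975 over all genes, and *Sdpr* lay above both.

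Marker genes of the tissue's cell types differed beside these values. All 6 EC markers had ratios below 1 (0.727 to 0.989, summed 136 against 111 FPKM). The 4 stromal markers were at 0.524 to 0.674 (summed 616 against 395, 3 of them called lower), the 3 melanocyte markers at 0.544 to 0.701 (summed 1613 against 1020), the 5 pericyte markers at 0.766 to 0.977 and 3 of the 4 smooth muscle markers, those with enough FPKM, at 0.787 to 0.964. The 4 RPE markers were at 1.16 to 1.34 (summed 8575 against 10351) and the 3 rod markers at 0.302 to 0.426 (summed 71.2 against 25.2, all called lower). The 4 hematopoietic markers were at 0.916 to 1.11. In bulk tissue, fewer cells of a type and less RNA per cell cannot be told apart, and the part of these shifts in the values of the 6 genes was not tested.

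**Figure D5:**
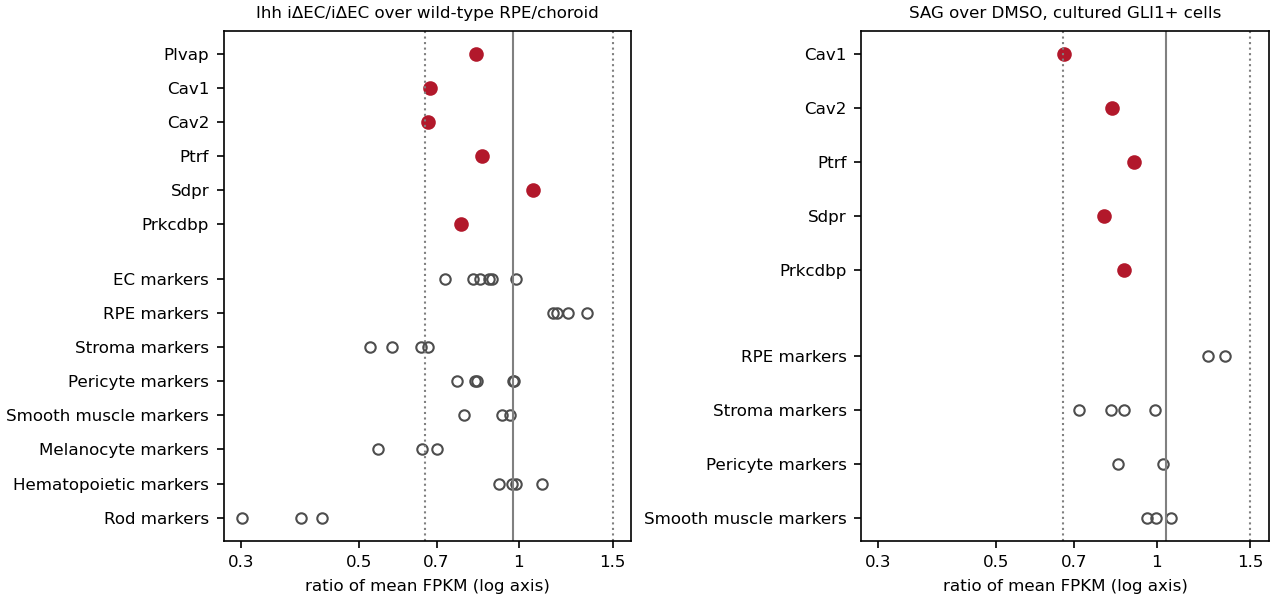
Ratio of the authors' mean FPKM (log axis) of the 6 genes (red) and of marker genes by cell type (open circles, 1 per gene) in Ihh iΔEC/iΔEC over wild-type RPE/choroid (left) and in SAG over DMSO in cultured GLI1+ cells (right; genes with at least 1 FPKM, lists with at least 2 such genes); the solid line is the median of all genes and the dotted lines are ratios of 0.667 and 1.5. Cav1 and Cav2 lie just inside the lower dotted line on the left, and Cav1 does so on the right.

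In cultured GLI1+ cells, stromal cells that respond to hedgehog, the comparison asked what the agonist SAG changed. The 2 known targets answered, *Gli1* with 0.0280 FPKM in DMSO and 3.65 in SAG and *Ptch1* with 1.13 and 10.1. *Plvap*, at 0.184 and 0.203 FPKM, was below 1 FPKM in both groups, and the EC markers were at 0.0117 to 0.187 FPKM apart from *Egfl7* (2.17 and 2.04). The coat genes were abundant, with 197 FPKM of *Cav1*, 187 of *Ptrf*, 184 of *Prkcdbp*, 14.8 of *Sdpr* and 10.4 of *Cav2* in DMSO.

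All 5 coat genes were lower with SAG in the mean, and none passed the rule, where 1.3% of 10325 genes were higher and 2.37% lower. Of these 10325 genes, 3313 had a ratio below 1. *Cav1* had 132 FPKM in SAG, a ratio of 0.669, again just inside the bound of 0.667, and 2.41% of the genes had ratios as low or lower. *Sdpr* had 11.8 (0.797), *Cav2* 8.54 (0.825), *Prkcdbp* 159 (0.868) and *Ptrf* 170 (0.907). The median ratio was 0.825 over the 5 genes and 1.04 over all genes. With both groups scaled so that this median became 1, *Cav1* was 0.641 and passed the rule, and 2.73% of the genes were then lower. The stromal markers had ratios of 0.715 to 0.992 and the smooth muscle markers with enough FPKM 0.958 to 1.07, and of the caveola list 5 passed the minimum, at 0.912 to 1.09.

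Per length, the caveolins stood in unlike proportion in the tissue and in the cultured cells. *Cav1* over *Cav2* FPKM was 1.34 in wild-type and 1.35 in Ihh iΔEC/iΔEC tissue, and 18.97 in DMSO and 15.4 in SAG-treated GLI1+ cells. *Sdpr* over *Ptrf* was 0.381 and 0.475 in tissue and 0.0791 and 0.0693 in GLI1+ cells. Each of these ratios was taken within 1 table. The 2 tables come from different strains and preparations, and the FPKM of a gene was not compared between them.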

How the data were processed

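The authors obtained UMI counts from the single-cell reads (Cell Ranger, mm10 reference), and the deposited counts are not normalized. They were filtered in Seurat 2.1 against shallow or mitochondria-rich cells and rarely detected genes. The cluster of each cell was assigned by the authors in Seurat and deposited as a label. No doublets were removed here. For bulk RNAseq, the authors aligned reads with STAR 2.4.0f1 to mm10, computed FPKM with Cufflinks 2.0.2 and deposited the mean FPKM of the 3 libraries of a group, so that no value of a single library was used. Fold changes and p-values deposited by the authors were not used, and the 12 libraries of ECs of other organs were not analysed here. Submitters' processing notes also name SAMtools 0.1.19.

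Counts were summed per cluster and library and given per 10,000 UMIs, with exact Poisson intervals. Ratios between clusters have exact conditional binomial intervals, and 0.5 UMIs were added to each count for the calls. Thinning drew 1700 UMIs per cell without replacement. The smallest library had 15230413 UMIs. Python 3.11.15, NumPy 2.4.6, SciPy 1.17.1 and pandas 2.3.3 were used, with GENCODE and RefSeq annotation of GRCm38. Alternatives were thinning, means over cells, other minima, folds, scalings and pseudocounts, and leaving out cells with markers of 2 types or of both sexes. The genes named are the 6 members, the lists of 9 caveola and 11 exchange genes, and for each member the 5 genes most like it. The members and lists were chosen with earlier results of these data known. Some marker genes are not reported here.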

Additional observations from a re-analysis of the deposited data

Results flagged for a closer look

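Of the ratios of the members between cell groups, 2 lay on opposite sides of 1 in the libraries, and the difference between libraries was not tested. The ratio of *Sdpr* in Kdr-high to Kdr-med ECs was 1.08 (1.00 to 1.17) in B6129PF1/J and 0.941 (0.877 to 1.01) in C57BL/6J. The ratio of *Plvap* in smooth muscle to stroma was 1.12 (0.876 to 1.42) in B6129PF1/J and 0.805 (0.660 to 0.975) in C57BL/6J, at levels of 0.458 to 0.922 per 10,000 in both cell groups.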

How the results depend on the processing

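The highest cluster of each of the 6 genes was the same in both libraries under all 5 alternatives to the levels. Between Kdr-high and Kdr-low ECs 3 members were called under every alternative except a ratio of at least 3, which left 2, *Plvap* and *Ptrf*. With that ratio 0 members were called between Kdr-high and Kdr-med ECs and 2 between smooth muscle and stroma, *Cav1* and *Ptrf*. *Ptrf* was also called in cluster 6 against the other stroma after thinning, with means over cells and with median-of-ratios scaling. This scaling moved the share of higher calls in smooth muscle against stroma from 27.7% to 38.7% of calls, with 4 members called in both. Of all genes, 865 were called between Kdr-high and Kdr-low ECs, 1583 without a minimum count, 570 with 50 UMIs, 520 after thinning and 447 with a ratio of 3. Between Kdr-high and Kdr-med ECs 534 became 1342, 349 or, with a ratio of 3, 218, and in cluster 6 against the other stroma 1337 became 2251 without a minimum and 744 with a ratio of 3, which also took smooth muscle against stroma from 2464 to 1502. The *Ihh* comparison had 506 calls, 319 with 1 FPKM added, 1214 without a minimum and 191 at a ratio of 2, and SAG had 379, 240, 794 and 152. Thinning moved the share of higher calls in Kdr-high against Kdr-med ECs from 26.2% to 42.7%. Between strains, 4 calls of members over the 4 clusters became 2 after thinning, *Ptrf* in Kdr-high ECs and *Plvap* in cluster 6, and *Ptrf* was lost with median-of-ratios scaling and with a ratio of 2. Between Ihh iΔEC/iΔEC and wild type, 0 members were called under all 5 alternatives. With SAG, 1 member was called, *Cav1*, with median-of-ratios scaling, and 0 under the other 4. Leaving out ECs with mural markers was chosen after seeing the data. Leaving out single libraries could not be run, since the bulk tables hold means and each strain had 1 library. No paired analysis was possible because the deposited columns carry no single-library values and each strain had 1 library. Depth limits the Kdr-low ECs (63 and 72 cells), melanocytes (16 and 26) and Schwann cluster 13 (30 and 46).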
